A study of Mus musculus with 8 samples.

Results

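The replication-dependent histone genes encode the H2A, H2B, H3 and H4 proteins of the nucleosome core and the H1 linker proteins that are made in bulk while DNA is copied. They were examined in RNA-seq counts of cultured mouse molar tooth germs. Members were the rows whose gene symbol follows the older Hist or the newer H1f, H2ac, H2bc, H3c and H4c naming patterns, and 63 of 35896 rows matched: 20 H2A, 17 H2B, 12 H3, 12 H4 and 2 H1 rows. Both H1 rows are not replication-dependent: H1f10 encodes a linker histone made throughout the cell cycle, and H1f11-ps is a processed pseudogene. The pattern as written misses the replication-dependent linker genes H1f1, H1f2, H1f3, H1f4 and H1f5, and these 5 genes are given beside the members and are never counted among them.

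Molar germs of BRE-GFP embryos, which carry a fluorescent reporter of BMP and Smad signalling, were cultured for 1 day. The groups were E12.5 germs with SB431542, which blocks the type I receptors of TGF-beta and activin, E12.5 germs with SIS3, an inhibitor of Smad3, E13.5 germs with DMSO, and E12.5 germs with DMSO, the solvent and common control. No dose, and no number of germs or embryos behind a sample, is given in the sources used here. Each group has 2 deposited columns. In protein-coding genes with 1 transcript, those of the SB431542, E13.5 DMSO and E12.5 DMSO groups differed by about the sampling noise. These pairs were summed to 1 library each, so the data hold 5 libraries, with 2 for SIS3. For SIS3 the TruSeq RNA v2 kit was used, which selects RNA with a poly-A tail, and for all other groups the SMARTer Universal Low Input kit, whose primers are random. SIS3 and the kit therefore cannot be told apart in any SIS3 value.

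Histone mRNAs of this class are the only abundant animal mRNAs that normally end without a poly-A tail. Their 3′ end is cut just past a short stem-loop, which the stem-loop binding protein Slbp holds through cutting, export, translation and decay, and the mRNAs are made in S phase and destroyed when DNA synthesis stops. Some histone genes can also use a poly-A signal further downstream, and those longer transcripts carry a tail.

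The stem-loop is shown because the presence or absence of a tail bears on how the SIS3 libraries sample these genes. It was searched as a 16-base pattern, the histone 3′ stem-loop, in GENCODE M21 transcripts (build GRCm38), on the transcript strand. It was found in 39 of 63 members and in 66 of 55450 annotated genes (0.119%). The commonest form, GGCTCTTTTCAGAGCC, was found in 21 members, and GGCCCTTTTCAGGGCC in 6. In the sequences below the 16 bases of the stem-loop are in capitals and flanking transcript bases in lower case.
H2ac18: taaaaaGGCTCTTTTCAGAGCCacccac
H2ac19: taaaaaGGCTCTTTTCAGAGCCacccac
H2ac6: cccaaaGGCTCTTTTCAGAGCCcccact
H2bc8: cccaaaGGCTCTTTTCAGAGCCacccat
H2bc12: accaaaGGCTCTTTTAAGAGCCactaaa
H3c2: cccaaaGGCTCTTTTCAGAGCCacccac
H3c6: caaaacGGCTCTTTTAAGAGCCacctcc
H4c8: accaaaGGCCCTTTTCAGGGCCgcccac
H4c2: acaaaaGGTCCTTTTCAGGACCactcac
H4c14: cctaacGGCCCTTTTTAGGGCCaaccac
H1f3: tcaaacGGCTCTTTTCAGAGCCacccac
The H2A, H2B, H3 and H1 genes shown carry a stem that starts GGCTC, and the H4 genes a stem that starts GGCCC or GGTCC. H2ac18 and H2ac19 have the same 28 bases. In 23 members the annotated transcript ended within 100 bases of the stem-loop, and in 16 it ran on for 100 bases or more. In the other 24 no stem-loop was annotated, which does not show that the gene lacks one.

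The members lie in 2 main clusters, with 51 genes on chromosome 13 and 10 on chromosome 3, while H1f10 is on chromosome 6 and H1f11-ps on chromosome 19. Many are close copies of each other. The median member shared 64.2% of its 31-base words with other annotated genes, 44 members shared over 50%, and only 8 shared 25% or less. These shares also count genes annotated over the same place, such as Gm20628 at H2bc18 and H3c13. Estimated counts of single genes can therefore move between copies, and sums by histone type are given first.

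Library totals were 28161788 counts with SB431542, 5995709 and 9427262 with SIS3, 17519118 in E13.5 DMSO and 30975010 in E12.5 DMSO. Levels are CPM, counts scaled to library size with TMM factors (normalised CPM), and 3 counts, taken as the floor of detection, equal 0.105, 0.495, 0.305, 0.179 and 0.0992 CPM in that order of libraries. The 8 dental mesenchyme markers fixed for the tissue check summed to 3205 normalised CPM with SB431542, 2726 and 2373 with SIS3 and 2350 in E13.5 DMSO, against 3276 in E12.5 DMSO. The 8 dental epithelium markers summed to 37.3, 54.8, 212 and 177 in those libraries, against 121 in E12.5 DMSO, and Shh was at or near 0 in all 5. Endothelial markers summed to 449 normalised CPM with SB431542, 40.4 and 35.5 with SIS3 and 437 in E13.5 DMSO, against 388 in E12.5 DMSO.

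The members took 0.499% of all counts with SB431542 (95% Wilson interval 0.496 to 0.502), 0.395% (0.390 to 0.401) and 0.309% (0.305 to 0.312) in the SIS3 libraries and 0.526% (0.523 to 0.530) in E13.5 DMSO, against 0.740% (0.737 to 0.743) in E12.5 DMSO. These intervals cover counting error only. The E12.5 DMSO library held the highest share of the 5, and the intervals do not overlap. In bulk samples fewer cells in S phase and less histone mRNA per cell cannot be told apart.

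**Figure D1:**
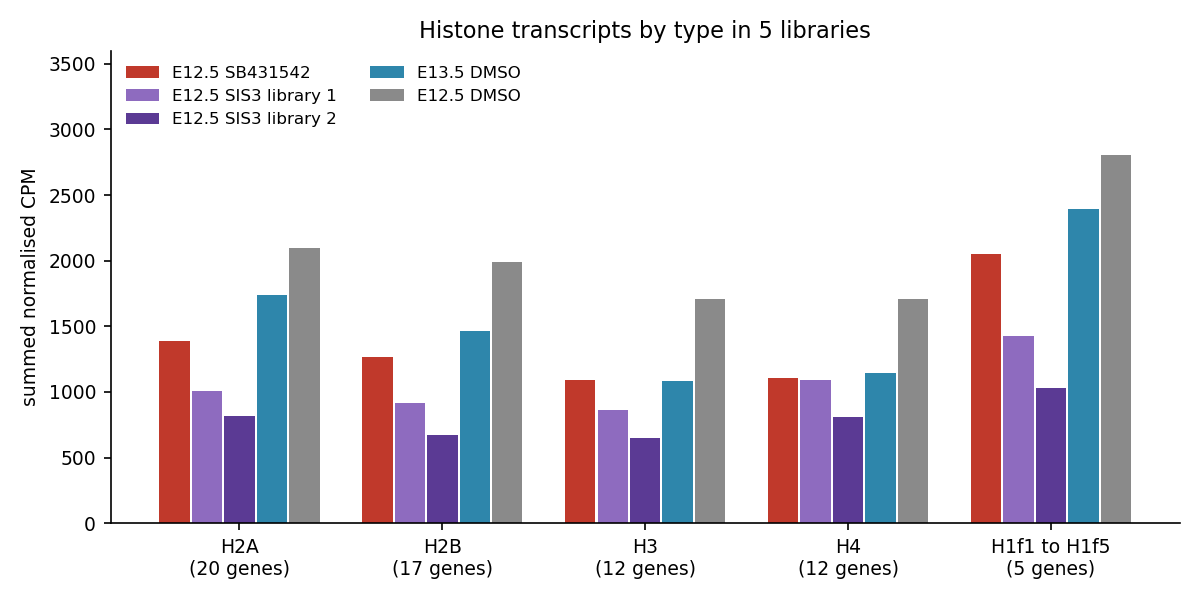
Summed normalised CPM (vertical axis) of the H2A, H2B, H3 and H4 members and of H1f1 to H1f5, one bar for each of the 5 libraries. In each of the 5 groups of genes the E12.5 DMSO bar is the tallest, and SIS3 library 2 is the lowest, from 649 to 1032.

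The first comparison set SB431542 against DMSO at E12.5, to see what blocking these receptors for 1 day did to histone transcripts. The 4 core types stood 1.52 to 1.58-fold lower in the SB431542 library, with none past the test, H1f1 to H1f5 stood 1.37-fold lower, and H1f10 was not lower. H2A summed to 1386 normalised CPM with SB431542 against 2100 in E12.5 DMSO, and H2B to 1265 against 1992. H3 summed to 1092 with SB431542 against 1705 in E12.5 DMSO, and H4 to 1106 against 1711. The log2 fold changes of these sums were −0.60 for H2A, −0.66 for H2B, −0.64 for H3 and −0.63 for H4, with standard errors of 0.32 to 0.33, and none passed the quasi-likelihood F test of edgeR after Benjamini-Hochberg adjustment over all genes (adjusted p = 1 for each, 1 library against 1). The sum of all members had a log2 fold change of −0.62 (95% confidence interval −1.29 to 0.04, adjusted p = 1 by edgeR). H1f1 to H1f5 summed to 2050 with SB431542 against 2805 in E12.5 DMSO (−0.45, SE 0.33), and H1f10 stood at 75.3 against 70.3 (0.10).

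Single members varied more than the sums. Of the 59 members that passed the filter on low counts, 54 had a negative and 4 a positive log2 fold change with SB431542, and H2ac19 had no count in either library. The median was −0.61, with quartiles of −0.71 and −0.49, against a median of 0.00 over all 19022 genes tested. Values ranged from −2.86 to 1.88. The lowest was the pseudogene Hist1h2al, with 1 count with SB431542 against 9 in E12.5 DMSO (SE 9.94). The next lowest was H2ac10 (−0.97). Members were called in neither direction by edgeR (0 of 59; 0% of all genes called either way), 3 were lower and 0 higher at an unadjusted p under 0.05 (0.668% and 0.568% of all genes), and DESeq2 called 0 members, with 4 genes lower and 0 higher among all 19022. The 4 members with a positive value were H1f10, H4c9 (11.8 normalised CPM with SB431542 against 11.4 in E12.5 DMSO), and Hist1h2ao and Hist1h2bq, both under 1 CPM in both libraries.

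The 12 core genes with the highest level per kilobase of transcript, 3 of each type, had log2 fold changes of −0.86 to −0.33 with SB431542. None passed the test. This rank depends on the longest annotated transcript, which can be short. H4c12, annotated with 312 bases, is among the 12 at a mean of 112 normalised CPM. H4c4, annotated with 1138, is not, at a mean of 195. H2bc18, an H2B gene of the chromosome 3 cluster, stood at 234 normalised CPM with SB431542 against 366 in E12.5 DMSO (log2 fold change −0.64). Hist1h2ap, an H2A gene, stood at 216 against 365 (−0.76), and H4c12, an H4 gene, at 119 against 181 (−0.60). H3c2, an H3 gene, stood at 183 with SB431542 against 313 in E12.5 DMSO (−0.77). H2ac18, which is treated with its copy below, stood at 393 against 493 (−0.33), and H3c13 at 147 against 224 (−0.61). The others were H2ac4 (−0.86), H2bc15 (−0.59), H2bc12 (−0.58), H3c11 (−0.48), Hist1h4n (−0.57) and H4c8 (−0.62).

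Genes of DNA replication and of mitosis also had negative values with SB431542. All 31 genes of a list for DNA replication and S phase had negative log2 fold changes, with a median of −0.43 and 0 called, and so did all 20 mitosis and G2/M genes, with a median of −0.70 and 0 called. Uhrf1, which helps copy DNA methylation at the fork, stood at 100.9 normalised CPM with SB431542 against 170 in E12.5 DMSO, and Mki67, a marker of cycling cells, at 262 against 436. Genes that handle histones or histone mRNA moved less, since 20 processing and decay genes had a median of −0.12, 21 histone chaperones of −0.18 and 11 replication-independent histone variants of −0.10, with 0 called in each list. Dental epithelium markers were low in the same library, with all 7 tested ones negative and a median of −1.35, while the 8 mesenchyme markers had a median of 0.00. Their part in the histone values was not tested. The whole comparison rests on 1 library a group. Taking the 8 deposited columns as replicates, edgeR called 12 members lower and 0 higher, against 164 lower and 95 higher of 17748 genes (1.46%), and the H2A sum alone among the sums (−0.59, adjusted p = 0.0392).

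The second comparison set SIS3, with its kit, against E12.5 DMSO. Histone sums were lower in both SIS3 libraries, and H4 least. H2A summed to 1010 and 815 normalised CPM with SIS3 against 2100 in E12.5 DMSO (log2 fold change −1.20, SE 0.27, adjusted p = 0.0216 by edgeR, here and below for 2 libraries against 1). H2B summed to 919 and 671 against 1992 (−1.33, SE 0.28, adjusted p = 0.0158 by edgeR). H3 summed to 866 and 649 against 1705 (−1.17, SE 0.28, adjusted p = 0.0295 by edgeR). All 3 sums fell, and in each both SIS3 libraries lay below E12.5 DMSO. H4 summed to 1088 and 807 with SIS3 against 1711 in E12.5 DMSO, and its log2 fold change of −0.85 (SE 0.28) did not pass the test (adjusted p = 0.116 by edgeR).

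Over all members the sum fell to 3911 and 2961 normalised CPM with SIS3, against 7578 in E12.5 DMSO (log2 fold change −1.14, SE 0.26, adjusted p = 0.0249 by edgeR). H4 made up 27.8% and 27.2% of that sum in the SIS3 libraries, 22.5% with SB431542 and 20.8% in E13.5 DMSO, against 22.6% in E12.5 DMSO. The difference between H4 and the other types was not tested. SIS3 library 1 was above library 2 in every type, by 0.31 (H2A) to 0.46 (H2B) on the log2 scale for the core types. The calls on these sums depended on the fit: when the fit kept only genes averaging at least 5 CPM the adjusted p by edgeR ran from 0.0880 (H2B) to 0.111 (H3), and with the SIS3 and E12.5 DMSO libraries alone from 0.0826 (H2B) to 0.104 (H3), while scaling by library totals ended those of H3 (0.0527) and of all members (0.0631).

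The sum of H1f1 to H1f5 fell, and 2 of the 5 genes passed the test. They summed to 1423 and 1032 with SIS3 against 2805 in E12.5 DMSO (log2 fold change −1.19, SE 0.27, adjusted p = 0.0271 by edgeR). That call ended when scaling by library totals (adjusted p = 0.0526 by edgeR), when keeping only genes averaging at least 5 CPM (0.110) and with the SIS3 and E12.5 DMSO libraries alone (0.104). H1f5 (ENSMUSG00000058773; GRCm38 chromosome 13, 21779883 to 21780625, minus strand) stood at 128 and 84.2 normalised CPM with SIS3, 268 with SB431542 and 323 in E13.5 DMSO, against 387 in E12.5 DMSO. Both SIS3 libraries were the lowest of the 5, and the SIS3 fold passed the test (−1.87, adjusted p = 0.00449 by edgeR). H1f3 passed too, at 287 and 185 with SIS3 against 715 in E12.5 DMSO (−1.60, adjusted p = 0.0117 by edgeR). H1f1 (−1.09), H1f2 (−0.90) and H1f4 (−0.90) did not, and H1f4 overlaps the H2B gene H2bc6 in the annotation, so reads there may belong to either. H1f10, the linker gene outside S-phase control, fell to 28.2 and 19.6 with SIS3 against 70.3 in E12.5 DMSO (−1.56, adjusted p = 0.0191 by edgeR).

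Among the 59 tested members, 27 fell and 2 rose with SIS3, against 3.03% of all genes that fell, 0.794% that rose and 3.82% called either way. The median log2 fold change was −1.46, also with H2ac19 at its bound against 3 counts, against 0.00 over all genes tested, and the quartiles were −1.88 and −0.44, a much wider spread than with SB431542. Members that fell were 10 of 18 tested H2A, 9 of 16 H2B, 5 of 12 H3 and 2 of 12 H4 genes, and H1f10. The count that fell was 7 of 56 when the fit kept only genes averaging at least 5 CPM, where 0.859% of all genes fell, and 14 of 59 with the SIS3 and E12.5 DMSO libraries alone, where 1.07% fell.

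**Figure D2:**
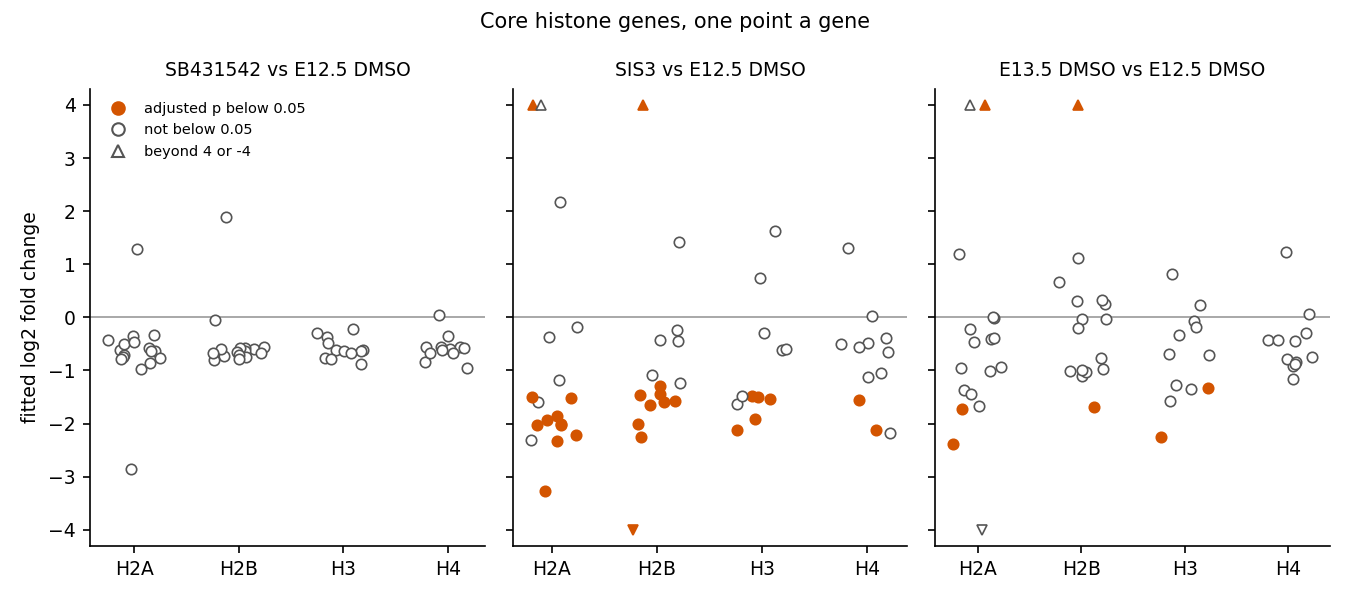
Fitted log2 fold change (vertical axis) of each tested core histone gene against E12.5 DMSO, by type, in 3 panels for SB431542, SIS3 and E13.5 DMSO. Filled points have an edgeR adjusted p below 0.05 and triangles lie beyond 4 or −4. With SB431542 most points sit between −0.81 and −0.19 and none is filled, and with SIS3 27 members including H1f10 (not drawn) fell.

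Members with few shared sequence words did not move together. The share is taken over the whole annotated transcript, and 2010 of the 2482 bases of H2ac6 lie past its stem-loop. H2ac6 holds 74.7% of the words of H2ac12, so copies can disturb its counts too. H2ac6 (ENSMUSG00000069270; GRCm38 chromosome 13, 23681467 to 23683948, minus strand), an H2A gene, stood at 79.1 normalised CPM with SB431542, 27.5 and 20.8 with SIS3 and 33.8 in E13.5 DMSO, against 112 in E12.5 DMSO. The E12.5 DMSO library was highest, and the SIS3 fold passed the test (−2.21, SE 0.32, adjusted p = 0.00225 by edgeR). H4c4 (ENSMUSG00000061482; chromosome 13, 23581598 to 23582735, plus strand) stood at 198 with SB431542, 166 and 122 with SIS3 and 175 in E13.5 DMSO, against 314 in E12.5 DMSO. It was also highest in E12.5 DMSO, but the SIS3 fold missed the threshold (−1.13, SE 0.30, adjusted p = 0.0529 by edgeR).

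H4c14 (ENSMUSG00000091405; chromosome 3, 96261682 to 96263311, minus strand), an H4 gene with 1257 annotated bases past its stem-loop, had 37.4 normalised CPM with SB431542, 53.8 and 42.9 with SIS3 and 25.4 in E13.5 DMSO, against 47.8 in E12.5 DMSO. The SIS3 libraries lay on both sides of the control (log2 fold change 0.02). H2bc21 (ENSMUSG00000068854; chromosome 3, 96221119 to 96223738, plus strand), an H2B gene with no stem-loop in its annotated transcript of 2620 bases, had 4.73 with SB431542, 12.04 and 14.2 with SIS3 and 6.15 in E13.5 DMSO, against 4.92 in E12.5 DMSO. Both SIS3 libraries were the highest, without passing the test (1.42, SE 0.61, adjusted p = 0.251 by edgeR). H4c3 (−0.57) and H2bc6 (−0.25) were not called either. The 7 tested members with 25% or fewer shared words had a SIS3 median of −0.57. Of these 7, 2 fell with SIS3: H2ac6, and H1f10, which is not replication-dependent.

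In the chromosome 3 cluster, H2bc18 (ENSMUSG00000105827; 96269752 to 96270132, plus strand) had 80.7 and 73.5 normalised CPM with SIS3 against 366 in E12.5 DMSO (log2 fold change −2.25, SE 0.28, adjusted p = 0.000588 by edgeR). All its sequence words occur in other annotated genes, and 2 annotated genes, Gm20628 and Gm42743, overlap it. How much of the sharing lies in these overlapping genes was not tested. H3c2 (ENSMUSG00000069267; chromosome 13, 23752267 to 23752886, plus strand) had 103 and 64.0 with SIS3 against 313 in E12.5 DMSO (−1.91, SE 0.32, adjusted p = 0.00599 by edgeR). H4c2, one of the 2 H4 genes that fell, had 34.5 and 26.2 against 132 (−2.12, adjusted p = 0.00229 by edgeR), and H4c12 was the other (−1.55). Of the remaining highest-level genes, H2ac4 (−1.94), H2bc15 (−2.01), Hist1h2ap (−1.49) and H3c13 (−1.48) fell, while H2bc12 (−1.24), H3c11 (−0.30), Hist1h4n (−0.50) and H4c8 (−0.66) did not pass the test.

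Medians are given by the annotated end of the transcripts, and the difference between these groups of members was not tested. The members with no annotated stem-loop are not known to lack it, since the annotation can be short. Among them H2bc15 and H2bc18 are annotated with 381 bases and H4c12 with 312. H1f10 and the pseudogene Hist1h2al are in the same group. The median SIS3 log2 fold change was −0.58 for the 16 members whose transcript runs 100 bases or more past the stem-loop, −1.44 for the 23 that end within 100 bases of it and −1.54 for the 20 tested members with no annotated stem-loop. With SB431542 the same medians were −0.62, −0.67 and −0.59. Calls of a fall with SIS3 numbered 5 of 16, 11 of 23 and 11 of 20. The summed levels differed less: the long-ended members summed to 1247 and 920 normalised CPM with SIS3 against 2003 in E12.5 DMSO, those ending near the stem-loop to 1812 and 1379 against 3473, and those with none annotated to 852 and 662 against 2102.

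By type, the long-ended H4 genes had a SIS3 median of −0.44 (6 genes) and those ending near the stem-loop −1.06 (5 genes), and for H2B the medians were −0.43 (3 genes) and −1.37 (6 genes). For H2A the long-ended median was the lower (−2.12 over 2 genes, against −0.93 over 8), and for H3 both were close (−1.47 over 5 genes and −1.57 over 4). Members with no annotated stem-loop had medians of −1.72 in H2A (8 genes), −1.46 in H2B (7 genes) and −0.30 in H3 (3 genes), the last above both other H3 medians, and the single such H4 gene had −1.55. Whether a molecule in these libraries carried a tail was not measured. Of 15 other RNAs without a tail listed for the same check, 0 were among the rows of the table, so the part of the kit was not tested on them. Other genes with transcripts of 300 to 800 bases had a SIS3 median of 0.00 (1300 genes), and those at a mean of 50 CPM or more one of −0.33 (86 genes).

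**Figure D3:**
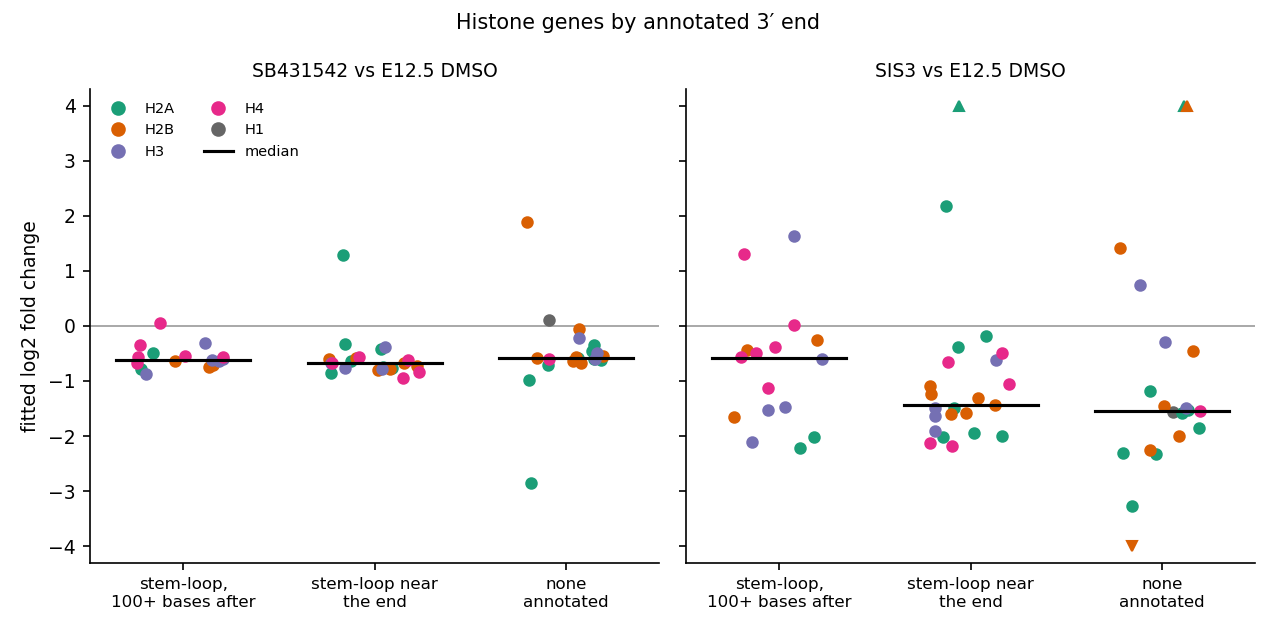
Fitted log2 fold change (vertical axis) against E12.5 DMSO for SB431542 and SIS3, one point a gene coloured by histone type, by annotated 3′ end, with black lines for medians. The SB431542 medians are −0.62, −0.67 and −0.59, and the SIS3 medians −0.58, −1.44 and −1.54.

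Most listed genes around the histones had negative values with SIS3, except in the histone mRNA processing and decay list (11 positive and 9 negative). Of 31 S-phase genes, all had negative log2 fold changes (median −0.93) and 7 fell, among them Rrm2, which makes deoxynucleotides (23.3 and 22.9 normalised CPM with SIS3 against 73.4 in E12.5 DMSO; −1.67), Tk1, thymidine kinase (5.77 and 9.97 against 34.9; −2.13), and Mcm6, a helicase subunit (104 and 122 against 257; −1.19). Ccne2, a cyclin of the G1 to S transition that also acts on the histone gene activator Npat, fell to 3.79 and 2.44 against 23.2 (−2.91), the only one of 20 histone mRNA processing and decay genes to be called. Npat itself stood at 172 and 110 with SIS3 against 72.2 in E12.5 DMSO (0.96, not called), and Slbp at 123 and 95.4 against 105 (0.05). None of 21 histone chaperones was called by edgeR with SIS3 (median −0.12), and Nasp, which carries H3 and H4, stood at 234 and 273 against 313.

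Of 11 replication-independent variants, 2 had a positive and 9 a negative log2 fold change with SIS3, with a median of −0.37, and 1, H1f10, fell. H1f0, a linker of resting cells, stood at 1036 and 553 normalised CPM with SIS3 against 280 in E12.5 DMSO (log2 fold change 1.51, not called), and H3f3b, which encodes H3.3, at 2041 and 1457 against 813 (1.10, not called). H3f3a, which encodes the same protein, stood at 310 and 383 against 635 (−0.87, not called), and H2ax, which can be made with a stem-loop or a tail, at 62.0 and 65.0 against 130 (−1.04, not called). Of 20 mitosis and G2/M genes, 18 had a negative and 2 a positive log2 fold change with SIS3 (median −0.56), and 0 were called. Their sum differed between the SIS3 libraries, at 2160 and 672 normalised CPM against 1883 in E12.5 DMSO. The SIS3 libraries also held less of 3 marker lists. All 8 endothelial markers fell (median −3.49). Macrophage markers summed to 11.9 and 11.5 with SIS3 against 49.6 in E12.5 DMSO, and 3 of 8 fell (median −3.58). Skeletal muscle markers summed to 274 and 216 against 786, and 3 of 8 fell (median −1.60). The part of these in the histone values was not tested.

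The third comparison set E13.5 germs against E12.5 germs, both with DMSO and the same kit, and asked for a stage difference. H3 and H4 stood lowest relative to E12.5, but no sum passed the test. H3 summed to 1083 normalised CPM in E13.5 DMSO against 1705 in E12.5 DMSO (log2 fold change −0.66, SE 0.33), and H4 to 1145 against 1711 (−0.58, SE 0.33). H2A summed to 1735 against 2100 (−0.28), H2B to 1462 against 1992 (−0.45) and H1f1 to H1f5 to 2395 against 2805 (−0.23). The edgeR adjusted p was 0.241 for H3 and 0.390 for all members (−0.46, 95% confidence interval −1.13 to 0.20), 1 library against 1. With 8 columns as replicates, H2B, H3, H4 and the sum of all members were called by edgeR, at adjusted p from 0.00372 (H3) to 0.0248 (H2B). In that fit 54.9% of all 17748 genes were called. In protein-coding genes with 1 transcript, the columns of each of these groups differed by about the sampling noise, like 1 library divided in 2.

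Among the 59 tested members 5 fell and 2 rose in E13.5 DMSO, against 1.17% of all genes that fell, 4.06% that rose and 5.23% called either way. The median log2 fold change was −0.47, with quartiles of −1.02 and −0.01, and 45 values were negative. H3c7, an H3 gene, had 28.9 normalised CPM in E13.5 DMSO against 137 in E12.5 DMSO (−2.25, adjusted p = 0.00593 by edgeR). H2ac6 had 33.8 against 112 (−1.72, adjusted p = 0.0260 by edgeR), H2bc3 58.2 against 189 (−1.70) and H3c1 59.0 against 147 (−1.32). H2ac18 was the fifth and is treated with its copy below. The number that fell was 1 when the fit kept only genes averaging at least 5 CPM (0.275% of all genes fell), 12 with no filter (2.19%), and 3 (0.483%) or 2 (0.408%) when either E13.5 column was left out. All 3 comparisons share the E12.5 DMSO library, so a high or low value in it enters each of them.

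Some members stood higher in E13.5 DMSO without passing the test, and differences between genes were not tested. H2ac12 stood at 197 normalised CPM in E13.5 DMSO against 86.8 in E12.5 DMSO (1.18, not called). H2ac7 holds 88% of the sequence words of H2ac12, H2ac13 82.1% and H2ac11 81.3%. In E13.5 DMSO the log2 fold changes were −1.44 for H2ac7 and −0.47 for H2ac13, neither called. H2ac11 stood at 94.8 against 95.5. Whether counts moved between H2ac12 and these copies was not tested. H3c10 stood at 65.6 against 37.3 (0.81, not called), and H4c9 at 26.7 against 11.4 (1.23, not called). H2ac12 shares 92.5% and H3c10 94.2% of its sequence words with other genes. S-phase genes had a median of −0.25 and mitotic genes of −0.13, with 0 called by edgeR in either list. The processing list had a median of −0.23 and the chaperones of −0.30, also with 0 called, and Casp8ap2, which encodes a factor of the histone locus body, stood at 73.2 in E13.5 DMSO against 164 in E12.5 DMSO (−1.16).

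**Figure D4:**
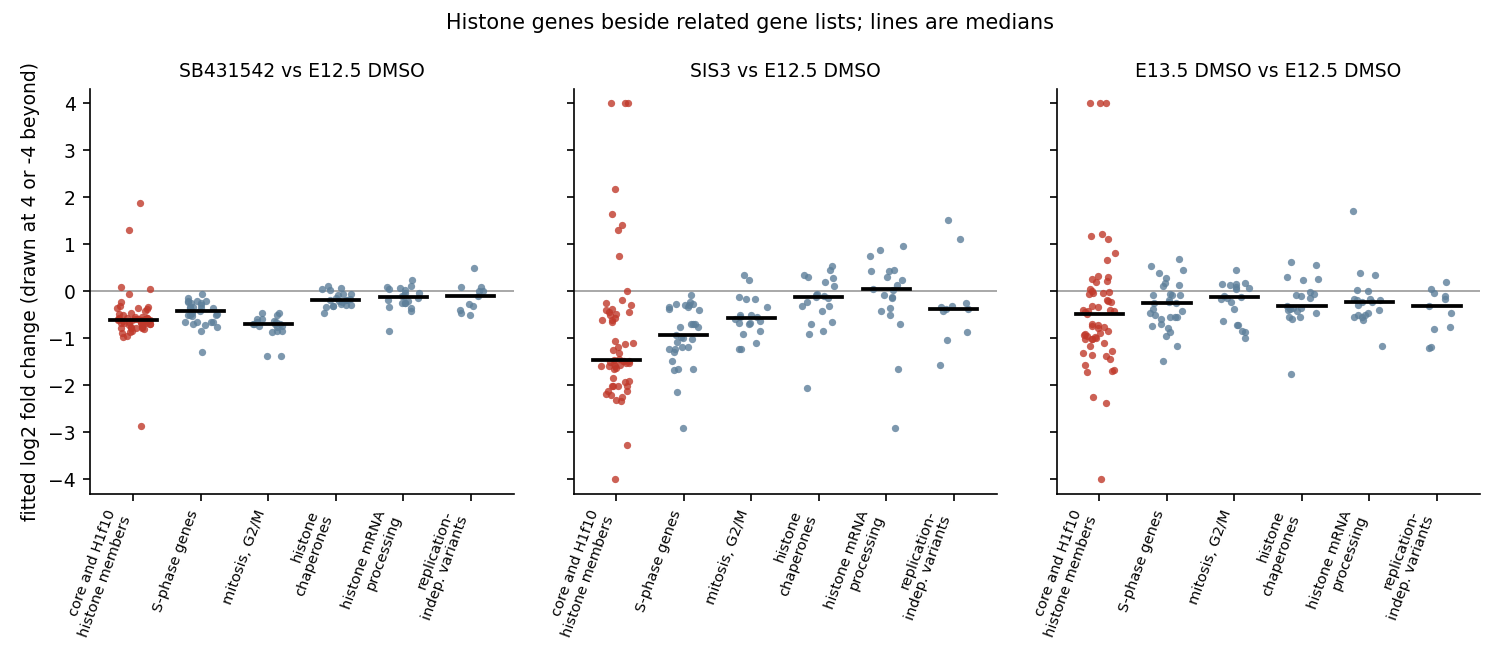
Fitted log2 fold change (vertical axis) against E12.5 DMSO in 3 panels for SB431542, SIS3 and E13.5 DMSO, one point a gene, for the members and 5 related lists, with black lines for medians and values beyond 4 or −4 drawn at those limits. Member medians are −0.61, −1.46 and −0.47, and S-phase medians −0.43, −0.93 and −0.25.

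Several calls on single members were on genes with close copies, and which copy held the counts differed between libraries. Whether reads were assigned differently or the copies changed in use was not tested. H2ac18 (ENSMUSG00000064220; chromosome 3, 96245497 to 96246082, plus strand) and H2ac19 (ENSMUSG00000063954; chromosome 3, 96239749 to 96240276, minus strand) are neighbouring H2A genes, and every 31-base word of H2ac19 occurs in H2ac18. They fall just outside the naming rule for copies and were chosen after their values were seen, as were the other copies named here. H2ac19 had 0 normalised CPM with SB431542, 211 and 203 with SIS3 and 266 in E13.5 DMSO, against 0 in E12.5 DMSO. H2ac18 had 393, 115, 130 and 94.7 in those libraries, against 493 in E12.5 DMSO. H2ac19 was thus at 0 in the SB431542 and E12.5 DMSO libraries, where H2ac18 was highest, and above H2ac18 in the other 3. H2ac19 is 1 of the 2 members called higher with SIS3 and in E13.5 DMSO, at least 2088-fold and 2682-fold against the floor of 3 counts in the E12.5 DMSO library.

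As a pair they moved far less. Their sum was 393 normalised CPM with SB431542, 326 and 334 with SIS3 and 361 in E13.5 DMSO, against 493 in E12.5 DMSO. The log2 ratios to E12.5 DMSO were −0.33, −0.60, −0.56 and −0.45. The other member called higher in both comparisons, the H2B gene Hist1h2bq, had 0.140 with SB431542, 68.6 and 43.8 with SIS3 and 3.46 in E13.5 DMSO, against 0.033 in E12.5 DMSO, a single count. Hist1h2br, which holds 98.3% of its words, had 110, 0.825, 0.509 and 88.2, against 176 in E12.5 DMSO. Their sum was 110, 69.4, 44.4 and 91.6, against 176 in E12.5 DMSO, so that the pair was lower in both SIS3 libraries (log2 ratios −1.34 and −1.99).

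Hist1h4m and Hist1h4n, both H4 genes, had 48.7 and 143 normalised CPM in SIS3 library 1 and 0 and 128 in library 2, against 107 and 192 in E12.5 DMSO. Their sum was 192 and 128 with SIS3 against 299 in E12.5 DMSO. Hist1h2al, annotated as a pseudogene, had 0.035 with SB431542, 29.2 and 0 with SIS3 and 132 in E13.5 DMSO, against 0.297 in E12.5 DMSO. Such values are uncertain as levels of single genes.

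**Figure D5:**
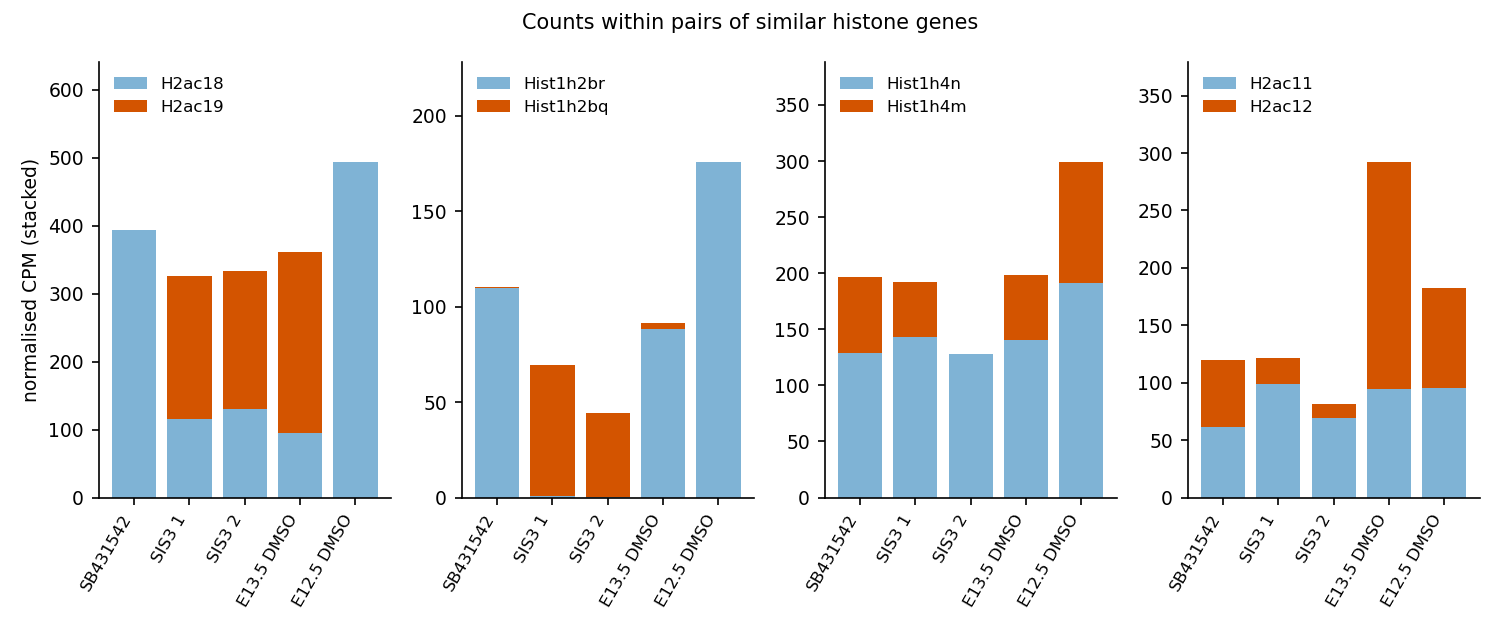
Stacked normalised CPM (vertical axis) of 4 pairs of similar histone genes in the 5 libraries. H2ac19 is 0 with SB431542 and in E12.5 DMSO while the pair with H2ac18 sums to 393 and 493 there, and Hist1h2bq replaces Hist1h2br in both SIS3 libraries.

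The remaining 4 members stayed outside the test at low counts, all of them near the floor. H1f11-ps had 5 counts with SB431542, 0 and 2 with SIS3 and 0 in E13.5 DMSO, against 1 in E12.5 DMSO. H2ac14, a pseudogene, had 5 counts in E12.5 DMSO and 0 elsewhere. H2ac1 and H2bc1, the paired H2A and H2B genes known for the male germ line, had at most 4 and 2 counts in any library.

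Many H2A and H2B genes sit head to head and share the DNA between their starts. The annotation held 14 such pairs, with starts 176 to 306 bases apart, and both genes were tested in 12. Both genes of 3 pairs fell with SIS3 and at least 1 gene of 10, while 27 of all 59 tested members fell, against 3.03% of all genes. H2ac6 (−2.21) and H2bc4 (−1.46) fell together, as did H2ac7 (−2.02) and H2bc7 (−1.59). The remaining pair was Hist1h2ap (−1.49) and Hist1h2br (−8.09). Hist1h2br is given above with its copy Hist1h2bq, and the sum of these copies had log2 ratios of −1.34 and −1.99 with SIS3. In the pair of H2ac11 and H2bc11, H2bc11 fell to 42.6 and 33.8 normalised CPM with SIS3 against 114 in E12.5 DMSO (−1.58, adjusted p = 0.0117 by edgeR), while H2ac11 stood at 99.0 and 69.5 against 95.5 (−0.18). H2ac8 (−2.02, called) and H2bc8 (−0.43, not called) also differed. The difference within a pair was not tested, and copies of these genes share words with others.

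Promoter letters were read from RefSeq windows (build GRCm38.p6) that were found for 46 members. The 200 bases before the start are shown for H2bc11, whose window lies between its start and that of H2ac11 (chr13:22042998-22043197, plus strand), for the linker gene H1f5 (chr13:21780626-21780825, minus strand) and for H4c4 (chr13:23581368-23581567, plus strand), as genes of 3 kinds described above. Capitals mark the CCAAT box, the TATA box searched as TATAAA, the octamer of H2B genes searched as ATTTGCAT and the H1 box searched as AAACACA, each on both strands.
H2bc11: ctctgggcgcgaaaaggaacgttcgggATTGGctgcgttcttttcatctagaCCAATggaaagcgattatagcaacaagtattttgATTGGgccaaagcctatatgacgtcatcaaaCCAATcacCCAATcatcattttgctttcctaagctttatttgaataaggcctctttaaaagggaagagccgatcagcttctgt
H1f5: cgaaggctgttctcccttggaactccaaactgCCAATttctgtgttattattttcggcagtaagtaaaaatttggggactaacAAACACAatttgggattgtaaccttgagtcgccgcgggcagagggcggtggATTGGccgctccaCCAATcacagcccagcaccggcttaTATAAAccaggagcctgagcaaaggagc
H4c4: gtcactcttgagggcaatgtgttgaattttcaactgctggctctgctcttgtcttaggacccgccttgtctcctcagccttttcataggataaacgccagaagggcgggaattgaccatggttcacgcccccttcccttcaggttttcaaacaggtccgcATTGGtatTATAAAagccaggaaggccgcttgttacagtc
The H2bc11 window holds several CCAAT boxes and no TATAAA, the H1f5 window an AAACACA beside CCAAT and 1 TATAAA, and the H4c4 window 1 CCAAT on the opposite strand and 1 TATAAA.

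In the 250 bases before the start, CCAAT, the letters bound by NF-Y, was found in 80.9% of 47 member windows against 33.8% of 32851 windows of all genes. It was in all 14 H2A and all 13 H2B windows, in 8 of 10 H3 windows and in 3 of 9 H4 windows. TATAAA was found in 42.6% against 12.4%. The octamer ATTTGCAT, known for binding Oct-1 at H2B genes, was found in 7 of 13 H2B and 6 of 14 H2A windows, which partly overlap, and in 0 of the H3 and H4 windows, against 1.60% of all windows. The H1 box AAACACA was found in 4 of the 5 windows of H1f1 to H1f5 against 6.25% of all windows. A match describes letters only.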

How the data were processed

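RNA-seq was analysed for 8 deposited columns of cultured molar germs in 4 groups. The authors deposited estimated counts for each gene, as whole numbers without scaling between libraries. Salmon, HISAT2, SAMtools, deepTools, DESeq2 and the build mm10 are named, per the submitters' processing notes, without roles or options. Salmon assigns reads shared by similar transcripts by estimation, which matters for histone copies. Kits are per the labels.

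Within a group the columns of SB431542, E13.5 DMSO and E12.5 DMSO had a median squared difference of 1.02 to 1.152 times that of dividing 1 set of reads at random (protein-coding genes with 1 transcript), against 13.32 for SIS3. For the members the medians were 1.161 to 1.613 against 40.31, and for genes with 2 or more transcripts 1.893 to 2.377 against 14.84. The 3 pairs were summed because the ratio for genes with 1 transcript was under 1.5. Genes with 2 or more transcripts exceeded that limit. Summing left 5 libraries. Nothing says that the SIS3 columns came from separate cultures, so p-values measure a spread that may be technical. The other 3 libraries are assumed to have the spread of the SIS3 pair (1 residual degree of freedom plus 12.5 borrowed across genes; common biological coefficient of variation 29.3%).

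The whole table was fitted with edgeR 4.0.16 (R 4.3.3): TMM, filterByExpr (19022 genes), robust quasi-likelihood F test, group as the only factor, Benjamini-Hochberg adjustment at 0.05. For type sums, member rows were replaced by their sums before fitting. Shared 31-base words were counted over GENCODE M21 transcripts on both strands; all 63 IDs matched. Scripts were tested on simulated data. Alternatives were DESeq2 1.42.0, other scalings and filters, 8 columns as replicates with and without a replicate block, left-out columns and other member lists. Genes named singly were the 3 highest per kilobase in each type, those with 25% or fewer shared words, and H1 rows; genes outside this rule were named after their values were seen. Members and lists were chosen with earlier results of these data known.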

Additional observations from a re-analysis of the deposited data

How the results depend on the processing

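Direction held for the core-type sums in each alternative run, with the all-member log2 fold change between −0.63 and −0.57 for SB431542, −1.36 and −0.96 for SIS3, and −0.51 and −0.37 for E13.5 DMSO. The H1 sum, which is H1f10 by the pattern as written, reversed when H1f1 to H1f5 took its place, to −0.45 for SB431542 and −0.23 for E13.5 DMSO, and gave the same values with a wider list chosen after seeing the data (−0.45 and −0.23). With 8 columns as replicates more was called: the H2A sum for SB431542 (−0.59) and 12 members lower, with 1.46% of all genes called; the H4 sum for SIS3 (−0.84), with 7 members higher and 45 lower (38.1%); and for E13.5 DMSO H2B (−0.43), H3 (−0.64), H4 (−0.56) and all members (−0.44), with 8 higher and 29 lower (54.9%). Adding the replicate block to those columns gave 3 members lower for SB431542, where 0.361% of all genes were lower. For SIS3 it gave H4 at −0.85, with 5 members higher and 44 lower, against 16% and 18.9% of all genes. For E13.5 DMSO it gave H2B −0.43, H3 −0.64, H4 −0.56 and all members −0.44. There 8 members were higher and 29 lower, against 28.2% and 24% of all genes. The replicate numbers do not pair samples, since same-numbered columns of different groups deviated with correlations of −0.0234 to 0.000865.

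Scaling by library totals ended the SIS3 calls of H3 (−1.10), H1f1 to H1f5 (−1.12) and all members (−1.07). Keeping genes at a mean of 5 CPM or more ended those of H1 (−1.56), H2A (−1.20), H2B (−1.33), H3 (−1.17), H1f1 to H1f5 (−1.19) and all members (−1.14), and left 7 members lower with SIS3 and 1 in E13.5 DMSO. Fitting the SIS3 and E12.5 DMSO libraries alone ended the same calls (−1.55, −1.19, −1.32, −1.16, −1.18 and −1.13 in that order) and left 14 lower. No filter brought the SIS3 H4 sum past the threshold (−0.87) and 12 members lower in E13.5 DMSO. The cause of these shifts was not tested. Leaving out 1 DMSO column at a time gave 2 to 4 members lower in E13.5 DMSO, with 0.408% to 1.05% of all genes lower. Leaving out a SIS3 library left no residual degree of freedom, with all-member values of −1.36 and −0.96. Stage values near 0 reversed for H2bc15 (0.014 with DESeq2 scaling and 0.014 with its test, 0.059 at a mean of 5 CPM), H1f2 (−0.029 by library totals, −0.0356 with no filter) and H3c13 (0.028 at a mean of 5 CPM). Fits with the median 95% interval reaching 1.01 to 1.26 on the log2 scale to either side cannot resolve small differences.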

Other observations

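Histone-like genes outside the pattern were also read. H2aw stood at 81.2 normalised CPM with SB431542, 144 and 79.6 with SIS3 and 85.1 in E13.5 DMSO, against 95.3 in E12.5 DMSO. H2bu2 stood at 24.4, 58.2, 32.4 and 8.12 in those libraries, against 28.9 in E12.5 DMSO, and H4f16, an H4 gene on chromosome 6, at 191, 130, 99.4 and 133, against 252. None of the 3 was called by edgeR in any comparison.

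Within H2A, the 2 clusters differed in the SIS3 libraries. The 16 H2A genes on chromosome 13 summed to 594 and 385 normalised CPM with SIS3 against 1465 in E12.5 DMSO (log2 ratios −1.30 and −1.93), and the 4 on chromosome 3 to 416 and 430 against 635 (−0.61 and −0.56). For H2B the order was the other way, with log2 ratios of −0.97 and −1.48 for the 15 genes on chromosome 13. For the 2 on chromosome 3 they were −2.001 and −2.081. In E12.5 DMSO, H2bc18 alone held 366 of the 371 normalised CPM of those 2 H2B genes. The copies H2ac18 and H2ac19 held 493 of the 635 of the 4 H2A genes there. The difference between clusters was not tested.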
